A study of Rattus norvegicus with 18 samples.

Results

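The experiment asked what cyclosporin A did to gene expression in hypertonically challenged cells of the renal inner medulla, over and above the challenge itself. Primary cultured rat inner medullary collecting duct (IMCD) cells were grown at 300 or 600 mosmol/kg. For the 600 challenge, the 300 culture spent 24 h at 600 mosmol/kg, and for the 900 challenge the 600 culture spent 24 h at 900 mosmol/kg, each without or with 5 µM cyclosporin A. All 12 arrays of these 4 groups were used, out of 18 in the series: 6 with and 6 without the drug, 3 per group. The pooled drug effect is the mean of the drug-minus-no-drug differences at the 2 challenges, with the challenge as a block. The remaining 6 arrays, from the unchallenged 300 and 600 cultures, entered as reference levels and in the estimate of spread for the values within each challenge. Every array with the drug came from a challenged culture, so the drug's action in unchallenged cells was not measured, and no label names a vehicle in the arrays without the drug. Whether the 3 arrays per group stand for different animals or different dishes is not in the labels. The p-values therefore rest on the spread between arrays, which may be technical.

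Cyclosporin A is an immunosuppressant that binds cyclophilins, and the complex inhibits calcineurin, the calcium-dependent phosphatase that otherwise dephosphorylates NFAT transcription factors and sends them to the nucleus. The drug is also known for its toxicity to the kidney. A pair of endoplasmic reticulum (ER) pathways recur in the results. When ER sterols are low, SREBP factors leave the ER and raise genes of cholesterol and fatty acid synthesis, a step that Insig proteins hold back. When unfolded proteins accumulate in the ER, the unfolded protein response raises chaperone genes and, through ATF4, genes of amino acid supply.

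Each array gave logarithmic levels of 28328 features on a common scale, with medians of 3.56 to 3.64 and lower quartiles of 2.48 to 2.70 over the 12 arrays. Differences are given in log units because the base is not stated. If it is 2, then 1 unit is a factor of 2, and for a natural logarithm it is a factor of 2.72. Within groups the median SD was 0.117 to 0.123 log units (n = 3). As a check of the labelled cell type, Aqp2, the vasopressin-regulated water channel of the collecting duct, read 2.50, 2.00 and 2.35 without the drug in the 600 challenge, under the lower quartile of 2.60 over all feature means, and 8.02, 7.92 and 7.88 in the 900 challenge. Slc14a2, the collecting duct urea transporter, read 3.09 to 3.22 in the former and 6.91 to 7.09 in the latter. Both of these markers were thus bright in the 900 challenge and dim in the 600 challenge. Not every collecting duct gene was dim in the latter, and Gata3, given below, was not. The mean level of 23 principal cell and urine concentration genes without the drug was 3.43 to 3.45 in the 600 challenge. In the 900 challenge it was 5.12 to 5.16.

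The common drug effect was small in most genes and mostly upward where it passed the test. With limma and Benjamini-Hochberg adjustment over all features, 81 features were higher with the drug (0.286% of those tested) and 16 were lower (0.0565%). All 97 differed in the same direction in both challenges. The test itself favours such features, since a difference between the challenges counts as spread in it. The separation of arrays given next rests on the same values as the calls. In 80 of the 81 and in 16 of the 16, every array with the drug lay beyond every array without it in both challenges, which held for 1.48% of all features upward and 0.974% downward. The median rise was 0.36 log units and the median fall -0.34, against quartiles of -0.07 and 0.07 over all features. 13 features rose by at least 0.5 log units, 4 fell by at least 0.5, and 0 reached 1. An unadjusted p under 0.05 was found for 2810 features (9.92%). The 97 included 82 features with 1 gene symbol, 69 higher and 13 lower, and 15 without a symbol. Leaving out any 1 of the 12 arrays lowered the counts to between 35 and 57 higher and between 5 and 12 lower, with the fewest without the third array of the 900 challenge with the drug. The counts also ranged with the model from 10 higher and 1 lower to 254 higher and 128 lower. All 97 kept their direction wherever they were tested, but only other scalings or left-out arrays could change the difference itself.

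**Figure D1:**
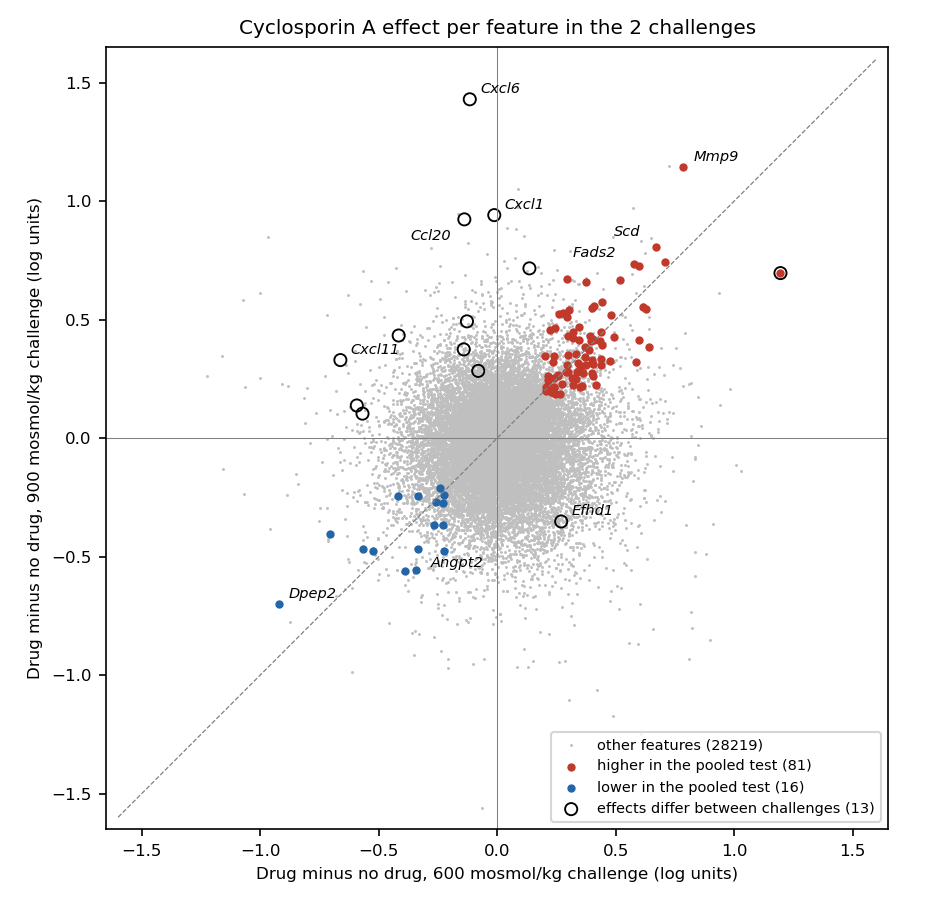
Each point is 1 feature, with the drug-minus-no-drug difference in the 600 challenge on the horizontal axis and in the 900 challenge on the vertical axis, both in log units, and the dashed line marks equal effects. The 81 features higher in the pooled test (red) lie in the upper right and the 16 lower (blue) in the lower left, while the 13 features whose effects differed between the challenges (circles) lie mostly away from the line.

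The gene with the largest pooled rise was Mmp9, the secreted protease gelatinase B, which cleaves type IV collagen and gelatin. Its level in the 600 challenge was 5.55, 5.68 and 5.47 without the drug and 6.23, 6.43 and 6.40 with it. In the 900 challenge it was 3.01, 3.39 and 3.13 without and 4.37, 4.36 and 4.23 with the drug. All arrays with the drug lay above those without it in either challenge, and the pooled difference was 0.96 ± 0.09 log units (SE, limma adjusted p = 0.000935), which is 1.95-fold with base 2 and 2.62-fold with a natural logarithm. Mmp9 had read 6.16, 6.12 and 5.98 in the 300 culture, so that with the drug its level in the 600 challenge lay above the unchallenged culture and without it below. In the list of matrix metalloproteinases and their inhibitors, Mmp9 was the 1 called member of 24, and the list's median was 0.03. Leukocytes also make this protease, and 0 of 17 measured leukocyte markers passed the pooled test in limma, with 1 higher and 5 lower at an unadjusted p under 0.05. In the 900 challenge alone 1 of them was called higher. Their median was -0.15 in the 600 challenge and 0.03 in the 900 challenge. The mean level of these markers ran from 4.39 to 4.57 without and 4.26 to 4.47 with the drug in the 600 challenge. In the 900 challenge it ran from 3.48 to 3.53 and 3.46 to 3.51, so the arrays overlapped in both. The part of leukocytes in the Mmp9 rise was not tested. In whole cultures, fewer cells of a type and less RNA per cell cannot be told apart.

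Ficd, an ER enzyme that modifies the chaperone BiP, read 3.66, 3.60 and 3.25 without and 4.20, 4.44 and 3.98 with the drug in the 600 challenge. In the 900 challenge Ficd went from 2.96, 3.00 and 3.00 to 3.62, 3.77 and 3.79, and its pooled rise was 0.72 ± 0.09 (limma adjusted p = 0.0058). The amino acid transporter genes Slc7a11, which exchanges cystine for glutamate, and Slc7a3, which carries cationic amino acids, each rose by 0.59. For Slc7a3 the arrays ran from 3.58 to 3.65 without and from 4.17 to 4.28 with the drug in the 600 challenge, and from 3.71 to 3.99 and 4.33 to 4.51 in the 900 challenge. Slc7a11 ran from 4.97 to 5.39 without and from 5.49 to 5.84 with the drug in the 600 challenge, and from 4.48 to 4.85 and 5.29 to 5.40 in the 900 challenge. Neither gene had overlapping arrays within a challenge.

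Smaller rises of about 0.5 log units were found for Hspb8, a small heat shock protein gene (0.52), Snai1, a repressor of epithelial genes (0.51), Gdf15, a stress-induced cytokine of the TGF-beta family (0.51), and Angptl4, an inhibitor of lipoprotein lipase (0.51). Tmem119, a membrane protein gene used as a marker of microglia, rose by 0.50, Tmem100, a membrane protein gene of endothelium, by 0.48, and Fdxacb1 by 0.48. Angptl4 was the only one of the 14 genes named for their rise whose arrays overlapped, at 4.44 to 4.79 without and 4.79 to 5.20 with the drug in the 900 challenge. The calls differed in how much they rested on single arrays. Mmp9, Scd, Ficd, Fads2, Insig1, Slc7a3 and Tmem119 passed the threshold in all 12 fits that left out 1 array. Fdxacb1 passed in 5 of those fits, Slc7a11 in 4, Gdf15 and Tmem100 in 3, Angptl4 in 2, and Hspb8 and Snai1 in 1, with adjusted p up to 0.118 for Hspb8 without the third array of the 600 challenge and 0.125 for Snai1 without the third array of the 900 challenge with the drug.

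**Figure D2:**
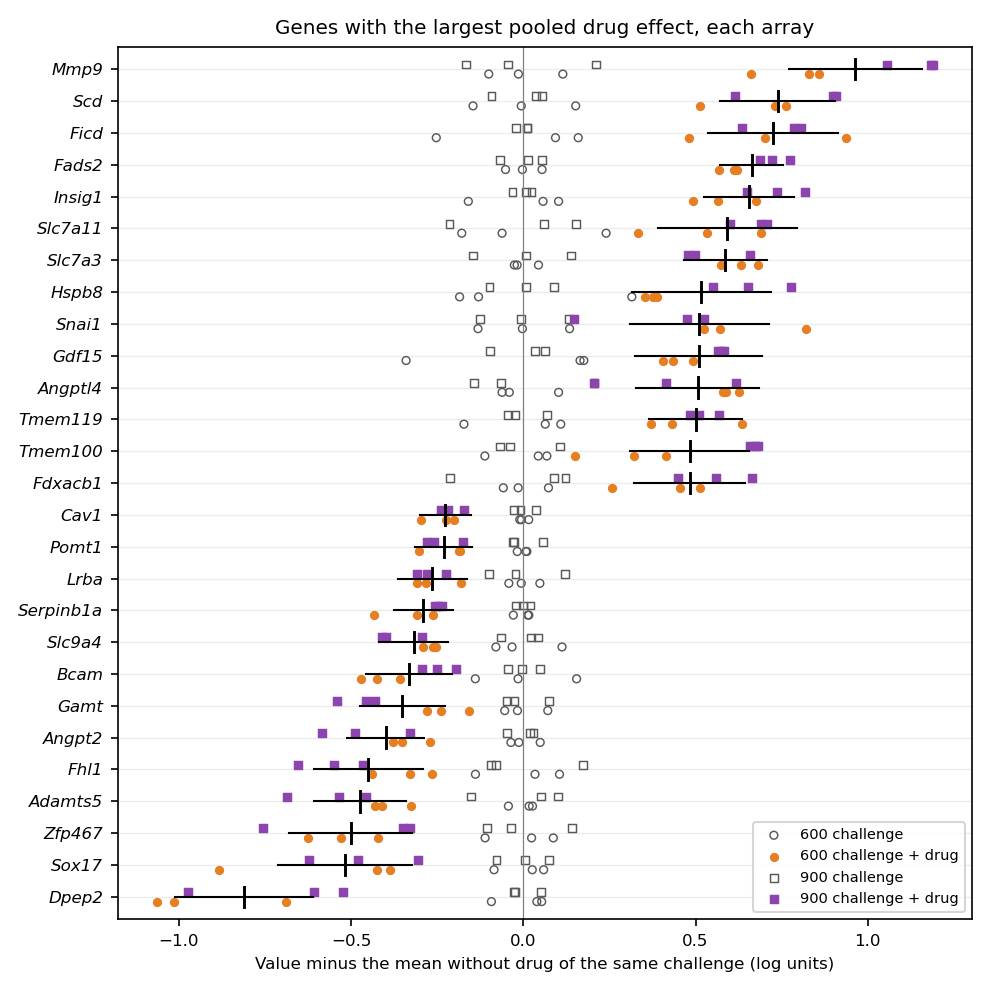
Rows are the 14 genes with the largest rise and the 13 with a fall in the pooled test, points are single arrays, and the tick and line give the pooled difference with its 95% interval, plotted as the level minus the mean of the arrays without the drug in the same challenge, in log units. Arrays with the drug lie to the right of those without it for the risers and to the left for the fallers, with overlap in the 900 challenge for Angptl4.

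Many genes of cholesterol synthesis rose. In the sterol synthesis list 10 of 20 measured members were higher and 0 lower, with a median of 0.26 (17 higher at an unadjusted p under 0.05 in limma), while 0.462% of the 14499 genes taken by their brightest feature were higher, 0.0897% were lower, and the median over all of them was 0.00. The risers covered the pathway from its first steps to its last. They were Acat2, which joins acetyl-CoA units (0.39), Idi1, the isopentenyl diphosphate isomerase (0.40), Fdps, the farnesyl diphosphate synthase (0.32), Fdft1, the squalene synthase (0.41), Sqle, the squalene epoxidase (0.29), Lss, the lanosterol synthase (0.36), Cyp51, the lanosterol demethylase (0.41), Msmo1, the next demethylating enzyme (0.26), Sc5d, the lathosterol oxidase (0.37), and the feedback regulator Insig1. The count was 2 without the arrays of widest and narrowest spread and 0 with 6 pairs of like-numbered arrays. Another 9 members had a positive difference in both challenges without passing the test, among them Nsdhl (0.20, limma adjusted p = 0.0633) and Srebf2, which encodes SREBP2 itself (0.17, limma adjusted p = 0.0602). Only Stard4, a dim sterol transport gene, had a negative pooled value (-0.02).

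Cyp51 had the smallest SE among these genes. In the 600 challenge it read 6.77, 6.76 and 6.74 without and 7.15, 7.14 and 7.15 with the drug, and in the 900 challenge 6.89, 6.92 and 6.81 without and 7.29, 7.26 and 7.36 with it. The pooled rise was 0.41 ± 0.03 (limma adjusted p = 0.000935), 0.39 in the 600 challenge and 0.43 in the 900 challenge. Fdft1 went from 6.11, 6.15 and 6.08 to 6.55, 6.56 and 6.45 in the 600 challenge and from 6.58, 6.38 and 6.51 to 6.84, 6.92 and 6.96 in the 900 challenge. Both genes separated the arrays with the drug from those without it completely. Insig1 is represented by 2 features, and both rose. The more responsive one went from 5.96, 5.92 and 5.70 to 6.35, 6.53 and 6.42 in the 600 challenge and from 6.47, 6.43 and 6.49 to 7.11, 7.28 and 7.20 in the 900 challenge (0.66 ± 0.06, limma adjusted p = 0.000935). The brighter one rose by 0.38 ± 0.05 (limma adjusted p = 0.00852), so the size of the Insig1 rise depended on the feature.

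Taken as a list, the sterol rises were of like size at both osmolalities. The list's median was 0.26 in the 600 challenge and 0.27 in the 900 challenge, with 7 and 10 members called higher against 0.372% and 0.593% of all genes, and limma's test of the difference between the challenges called 0 of its members, with 2 at an unadjusted p under 0.05. For 2 genes the interval of that difference lay above 0 before adjustment. Idi1 rose by 0.28 at 600 and 0.53 at 900 (difference 0.25, 95% interval 0.01 to 0.49, limma adjusted p = 0.64). Acat2 rose by 0.26 and 0.52 (0.27, 0.06 to 0.47, limma adjusted p = 0.54). Unequal effects are thus not excluded there. Leaving out 1 array left 6 to 9 of the 10 calls, with 6 without any of 5 arrays: the third of the 600 challenge, the first of the 600 challenge with the drug, the second of the 900 challenge, and the first and the third of the 900 challenge with the drug. Fdps, Fdft1, Cyp51, Msmo1, Sc5d and both Insig1 features passed in all 12 of these fits.

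A part of the genes of fatty acid synthesis and desaturation was called higher as well. In that list 4 of 15 measured members were higher and 0 lower, with a median of 0.25, against 0.462% higher and 0.0897% lower of all genes. At an unadjusted p under 0.05 limma had 13 of the 15 higher and 0 lower, and the fit with all 18 arrays called 8 higher. Fads2, the delta-6 desaturase that begins the making of long polyunsaturated fatty acids, had the smallest adjusted p of all features (0.000156, limma). It read 5.14, 5.20 and 5.09 without and 5.76, 5.71 and 5.75 with the drug in the 600 challenge, and 4.87, 5.00 and 4.95 without and 5.66, 5.63 and 5.71 with it in the 900 challenge, a pooled rise of 0.66 ± 0.04. Scd, a stearoyl-CoA desaturase that makes monounsaturated fatty acids, went from 3.28, 3.44 and 3.14 to 4.05, 4.02 and 3.80 and from 3.12, 2.97 and 3.10 to 3.68, 3.96 and 3.97 (0.74 ± 0.08, limma adjusted p = 0.00212). No array overlapped for either gene. The related desaturase gene Scd2 rose by 0.33, from 7.25 to 7.36 without and 7.61 to 7.64 with the drug in the 600 challenge and from 7.70 to 7.71 and 8.01 to 8.03 in the 900 challenge.

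Fasn, the fatty acid synthase, rose by 0.38, from 5.82 to 5.86 without and 6.09 to 6.24 with the drug in the 600 challenge and from 4.98 to 5.17 and 5.50 to 5.54 in the 900 challenge. Fads1, the delta-5 desaturase that acts after Fads2, had a pooled value of 0.59 with an adjusted p of 0.0589 in limma, and the elongase gene Elovl6 had 0.28 with 0.0805, so neither passed. Acly (0.19), Acaca (0.18) and Acss2 (0.25), which supply acetyl-CoA and malonyl-CoA, did not pass either, and Gpam (-0.08) and Dgat2 (-0.10), which esterify fatty acids to glycerol, had negative values. In single challenges 3 members were higher at 600 and 5 at 900, against 0.372% and 0.593% of all genes. The 4 pooled calls were also made in every fit that left out 1 array. A pair of called lipid genes outside the lists, chosen after their values were seen, were Lpcat3, which puts polyunsaturated acyl chains into phospholipids (0.28), and Acsl3, an acyl-CoA synthetase (0.29).

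Some genes of the unfolded protein response rose, mostly by smaller amounts. In the ER stress and ATF4 list 8 of 27 measured members were higher and 0 lower, against 0.462% and 0.0897% of all genes. The median was 0.20, and 26 of the 27 pooled values were positive. The called chaperones and folding enzymes were Hspa5, which encodes BiP (0.21), Hsp90b1, the ER member of the HSP90 family (0.29), Hyou1, a large ER chaperone (0.32), Dnajc3 (0.27) and Dnajb9 (0.36), co-chaperones of BiP, Pdia6, a disulphide isomerase (0.25), and Manf, a secreted ER stress protein (0.34). The remaining call was Trib3, a pseudokinase gene induced by ATF4 (0.47). Hspa5 read 8.07, 8.02 and 8.06 without and 8.28, 8.23 and 8.25 with the drug in the 600 challenge, and 8.18, 8.11 and 8.13 without and 8.38, 8.33 and 8.36 with it in the 900 challenge. The groups did not overlap, and the rise was 0.21 ± 0.03 (limma adjusted p = 0.0207). Hyou1 went from 6.08, 6.06 and 6.11 to 6.47, 6.47 and 6.39 and from 6.05, 6.10 and 6.09 to 6.27, 6.37 and 6.43. It too showed no overlap, and it rose by 0.32 ± 0.04 (limma adjusted p = 0.00665).

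At an unadjusted p under 0.05 limma had 18 of the 27 members higher and 0 lower, against 924 higher and 839 lower of all 14499 genes. The regulators of that response did not pass the adjusted test. Atf4 had a pooled value of 0.20 (95% interval 0.10 to 0.30, limma adjusted p = 0.114) and Xbp1 0.13 (0.06 to 0.20, limma adjusted p = 0.175), with separate arrays in both challenges for either gene, and Xbp1 passed in the fit with all 18 arrays (limma adjusted p = 0.0405). Atf6 had 0.03, Ddit3, which encodes the pro-apoptotic factor CHOP, 0.07, and Ppp1r15a, a phosphatase subunit that ends the ATF4 branch, 0.01. Of the 27 members, 23 had a positive difference in both challenges. Chac1, a glutathione-degrading ATF4 target, was the only member with a negative pooled value. Its level went from 1.79 to 2.34 up to 2.68 to 3.03 in the 600 challenge and from 3.35 to 3.54 down to 2.31 to 2.66 in the 900 challenge. The arrays separated in opposite directions, and the difference of effects was -1.74 with an adjusted p of 0.15 in limma, which did not pass. The count of 8 was the least settled of the 3 lists. It fell to 2 without the first or the third array with the drug in either challenge, and lay between 3 and 6 without any of the others. Hyou1 and Dnajc3 passed in all 12 of those fits, Manf in 8, Hspa5 in 4, Trib3 in 2, and Dnajb9, Hsp90b1 and Pdia6 in 1.

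Several of these genes share promoter letters, which are shown because the genes moved together. The promoters run from 250 bases before to 50 bases after the RefSeq start, in assembly GRCr8, and 48 of the 67 symbols called higher had one. The motifs searched on both strands were the ER stress element (CCAAT, any 9 letters, CCACG), its variant (ATTGG, any 1 letter, CCACG), and the sterol regulatory element (TCAC, any 1 letter, CCAC). The first and second share the letters CCACG and can overlap there. Shares over all promoters count each promoter entry, whereas counts within a set of genes count each gene once. The first was found in 0.0657% of 33469 promoters, and in 4 of the 48 genes called higher, namely Dnajc3, Hspa5, Hsp90b1 and Zfand2a, a gene of protein quality control. The variant was found in 0.0508% of all promoters and in 1 of the 48, Hyou1. The stretches follow, 5′ to 3′ on the gene's strand, with the letters matched to these ER stress elements in capitals. They lie at chr15:102432522-102432564 (plus strand) for Dnajc3, chr3:38452961-38453003 (plus) for Hspa5, chr12:20275268-20275310 (plus) for Zfand2a, chr7:23012335-23012481 (minus) for Hsp90b1 and chr8:53602682-53602816 (plus) for Hyou1.
Dnajc3: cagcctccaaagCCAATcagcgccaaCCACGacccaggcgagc
Hspa5: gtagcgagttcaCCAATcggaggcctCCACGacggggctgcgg
Zfand2a: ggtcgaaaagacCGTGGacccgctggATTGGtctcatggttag
Hsp90b1: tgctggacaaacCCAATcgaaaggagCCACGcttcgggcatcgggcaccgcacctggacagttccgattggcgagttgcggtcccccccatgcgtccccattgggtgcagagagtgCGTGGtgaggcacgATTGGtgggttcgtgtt
Hyou1: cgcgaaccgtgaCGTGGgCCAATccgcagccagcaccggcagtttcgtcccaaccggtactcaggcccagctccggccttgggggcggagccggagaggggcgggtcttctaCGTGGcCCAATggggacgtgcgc
Dnajc3 and Hspa5 carry the element as spelled, Zfand2a carries it on the opposite strand, Hsp90b1 holds 1 match in each orientation, and Hyou1 holds the variant at 2 places on the opposite strand. Over the whole ER stress list the first element was in 6 of 24 genes with a promoter, so it was also present in members that did not pass the test. The sterol element was in 1.12% of all promoters and in 2 of the 48 genes called higher (4.17%, Gdf15 and Hsp90b1). Of the genes with a promoter, it was in 0 of 16 in the sterol list and 0 of 11 in the fatty acid list. The counts of 0 say only that these letters are not in those windows. A match is a description of letters, and binding was not measured here.

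Beyond the lists, called genes include several of the ER's protein import and glycosylation machinery, picked after their values were seen. Serp1, which stabilises newly made membrane proteins, rose by 0.38, and Sec61a1, the channel subunit, by 0.22. Ssr3, a translocon-associated subunit, rose by 0.21, and Ostc and Rpn1, subunits of the oligosaccharyltransferase that attaches N-glycans, by 0.41 and 0.31. Uggt1, the folding sensor of the glycan cycle, rose by 0.21, Edem2, which trims glycans of misfolded proteins, by 0.28, and the disulphide isomerase gene Pdia5 by 0.33. Among genes of amino acid and one-carbon supply, Slc1a4, a neutral amino acid transporter, rose by 0.34, Slc7a2, a cationic amino acid transporter, by 0.33, and the 2 features of Mthfd2, a mitochondrial folate enzyme, by 0.40 and 0.39. Zfand2a read 5.98, 5.95 and 5.87 without and 6.21, 6.29 and 6.18 with the drug in the 600 challenge, and 6.08, 5.97 and 5.94 without and 6.53, 6.42 and 6.58 with it in the 900 challenge. It rose by 0.40 ± 0.05 (limma adjusted p = 0.011).

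Other stress programmes had single calls at most in the pooled test. In the NRF2 list 1 of 19 members was called (Slc7a11, median of the list 0.11), in the p53 list 1 of 17 (Gdf15, 0.02), in the heat shock list 1 of 18 (Hspb8, 0.00), and in the list of AP-1 and early response genes 1 of 26 (Egr2, a zinc finger factor, at 0.41, list median -0.00). The NRF2 list still leaned upward, with 17 of 19 pooled values positive and 7 members higher and 0 lower at an unadjusted p under 0.05. The fit with all 18 arrays called 3 of its members higher. At that unadjusted threshold the p53 list had 4 higher and 1 lower, the heat shock list 1 and 1, and the AP-1 list 2 and 1. The cell cycle list (30 members, median 0.06), the mitochondrial respiration list (21, -0.02), the hypoxia list (22, 0.00) and the interferon list (20, 0.02) had 0 calls in either direction with limma, and 0 of 13 reference genes were called (median -0.01). At an unadjusted p under 0.05 the cell cycle list had 3 higher, the respiration list 2 lower, the hypoxia list 1 higher and 3 lower, the interferon list 2 higher, and the reference genes 2 higher and 1 lower. The markers of the proximal tubule, intercalated cells, the loop of Henle, epithelial junctions and tubule injury also had 0 calls in limma, as had the lists of ion pumps, prostaglandins, extracellular matrix, EGF receptor ligands, vasoactive peptides, and magnesium and potassium handling, with 0 to 7 members per list at an unadjusted p under 0.05 and 0 to 3 called in the fit with all 18 arrays.

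The falls were fewer, with 13 named genes. Dpep2, a membrane dipeptidase that acts on leukotriene D4, fell most. It read 3.49, 3.50 and 3.36 without and 2.76, 2.44 and 2.39 with the drug in the 600 challenge, and 3.94, 3.94 and 4.02 without and 3.36, 3.00 and 3.44 with it in the 900 challenge. The arrays did not overlap, and the pooled difference was -0.81 ± 0.09 (limma adjusted p = 0.00397). Part of its levels with the drug lay under the lower quartile, where the size of a fall is less sure.

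Of the other fallers, Sox17, a transcription factor of endoderm and endothelium, fell by 0.52, Angpt2, a ligand of the endothelial receptor Tie2, by 0.40, Adamts5, a protease that cleaves aggrecan, by 0.47, Bcam, a laminin receptor, by 0.33, and Cav1, the coat protein of caveolae, by 0.23. Angpt2 read 5.99, 6.05 and 5.96 without and 5.62, 5.73 and 5.65 with the drug in the 600 challenge, and 5.94, 6.01 and 6.02 without and 5.66, 5.50 and 5.41 with it in the 900 challenge. The separation was complete in both, with a pooled SE of 0.05 (limma adjusted p = 0.00794). The endothelium list had 0 of 14 members called in limma (1 higher and 2 lower at an unadjusted p under 0.05) and a median of -0.02, with a mean level of 4.48 to 4.56 without and 4.39 to 4.47 with the drug in the 600 challenge and 4.78 to 4.88 and 4.87 to 4.89 in the 900 challenge. These markers thus lay lower with the drug in the first challenge and overlapped in the second, and their part in the falls was not tested.

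Further falls were those of the zinc finger gene Zfp467 (-0.50), the LIM domain gene Fhl1 (-0.45), Gamt, which makes creatine (-0.35), Slc9a4, a sodium-hydrogen exchanger (-0.32), Serpinb1a, an inhibitor of neutrophil proteases (-0.29), Lrba, a vesicle trafficking gene (-0.26), and Pomt1, a protein mannosyltransferase of the ER (-0.23). All 13 had separate arrays in both challenges. Dpep2, Adamts5, Angpt2 and Serpinb1a passed in all 12 fits that left out 1 array, and Slc9a4 in 10. Cav1 passed in 5, Zfp467, Fhl1 and Gamt in 3, Sox17 in 2, and Bcam and Lrba in 1. Pomt1 passed in none of them, with adjusted p from 0.0522 to 0.0913, the last without the second array of the 600 challenge.

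The genes of the drug's own targets did not pass. In the list of calcineurin and NFAT, 0 of 22 members were called in either direction by limma, with 1 higher and 2 lower at an unadjusted p under 0.05. The median was -0.01 and pooled values ran from -0.41 to 0.14. Rcan1, the calcineurin regulator that NFAT itself induces, read 5.23, 5.01 and 5.15 without and 4.91, 5.10 and 5.22 with the drug in the 600 challenge, and 5.36, 5.41 and 5.37 without and 5.38, 5.41 and 5.46 with it in the 900 challenge. Its arrays overlapped in both, and the difference of -0.01 had a 95% interval from -0.13 to 0.12. The catalytic subunit genes Ppp3ca (0.02, -0.05 to 0.10) and Ppp3cb (0.02, -0.06 to 0.10) had narrower intervals. The cyclophilin genes gave 0 calls of 14 in limma (median 0.07, 4 higher at an unadjusted p under 0.05), and Ppib, the ER cyclophilin, had 0.14 with an adjusted p of 0.158 in limma. Among 16 genes of drug handling 0 were called in limma (median 0.09, 3 higher at an unadjusted p under 0.05), and Abcb1b, a P-glycoprotein gene, had 0.20 with an adjusted p of 0.165.

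Genes of the osmotic response and of the collecting duct were not called either. In the osmolyte list 0 of 7 members passed in limma, and 0 had an unadjusted p under 0.05 (median -0.00). Akr1b1, the aldose reductase that makes sorbitol, ran from 8.88 to 8.90 without and 8.81 to 8.86 with the drug in the 600 challenge, and from 9.06 to 9.12 and 9.10 to 9.17 in the 900 challenge. Its pooled difference of -0.00 had a 95% interval from -0.08 to 0.07, and that of the myo-inositol transporter gene Slc5a3 (-0.08) ran from -0.20 to 0.04. In the list of principal cell and urine concentration genes 0 of 23 passed in limma, with 7 lower at an unadjusted p under 0.05 and 2 lower in the fit with all 18 arrays, and 19 of the 23 pooled values were negative (median -0.08). The lowest was Fxyd4, a regulator of the sodium pump (-0.49, limma adjusted p = 0.0923), and Aqp2 had -0.34 (0.187), Aqp4 -0.36 (0.278) and Gata3, a collecting duct transcription factor, -0.29 (0.134). Gata3 was called lower in the 600 challenge alone, at 6.05, 6.10 and 5.97 without and 5.52, 5.66 and 5.55 with the drug (limma adjusted p = 0.00062), while its test of the difference between challenges gave 0.36 with an adjusted p of 0.1. The mean level of the whole marker list was 3.43 to 3.45 without and 3.27 to 3.31 with the drug in the 600 challenge, and 5.12 to 5.16 and 4.98 to 5.08 in the 900 challenge, lower with the drug in both.

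**Figure D3:**
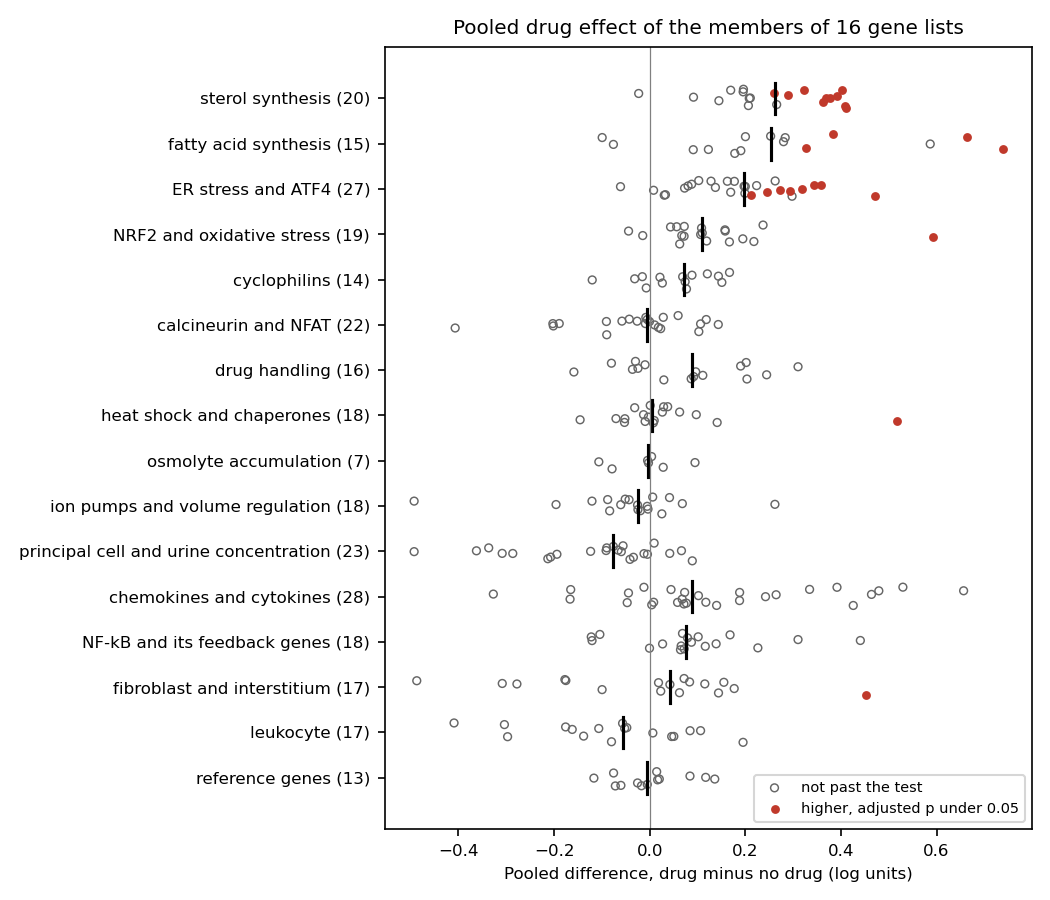
Each point is a gene of one of 16 lists, placed by its pooled drug-minus-no-drug difference in log units, with called genes in colour and the list's median as a bar. The sterol, fatty acid and ER stress lists lie mostly to the right of 0, with medians of 0.26, 0.25 and 0.20, while the calcineurin and osmolyte lists centre on 0.

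Fibroblast markers moved unevenly beside these results. Pdgfrb, the receptor for platelet-derived growth factor on fibroblasts and pericytes, was the 1 called member of 17 in the pooled test. At an unadjusted p under 0.05 the list had 3 members higher and 4 lower, the fit with all 18 arrays called 1 higher and 3 lower, and the 900 challenge alone had 1 higher and 3 lower. Pdgfrb read 5.34, 5.43 and 5.24 without and 5.85, 6.04 and 5.87 with the drug in the 600 challenge, and 5.49, 5.52 and 5.50 without and 5.80, 5.78 and 5.89 with it in the 900 challenge (0.45 ± 0.06, limma adjusted p = 0.0117). The list's median was 0.04, with 6 members positive and 6 negative in both challenges. Its mean level was 4.80 to 4.87 without and 4.89 to 4.96 with the drug in the 600 challenge but 4.57 to 4.72 and 4.51 to 4.58 in the 900 challenge. The fibroblast level was thus higher with the drug in the first and overlapped in the second, and its part in the Pdgfrb rise was not tested.

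Setting the challenges beside each other showed how far the drug effect was shared. Their 4 groups have no array in common. In the 600 challenge alone limma called 116 features, 65 higher (0.229%) and 51 lower (0.18%), and in the 900 challenge alone 143, 101 higher (0.357%) and 42 lower (0.148%). Of the 65 risers at 600, 61 also had a positive difference at 900, with a median of 0.40 at 600 and 0.26 at 900. Among the 51 fallers 37 kept their sign, and their median went from -0.45 to -0.10. The risers at 900 kept their sign at 600 in 82 of 101 cases, with a median of 0.39 at 900 and 0.14 at 600, and the fallers in 28 of 42, with -0.51 and -0.05. These features were picked for passing in the challenge named first, which favours larger values there. The smaller medians in the other challenge therefore do not measure a weaker drug effect. Over all features 52.9% had the same sign in both challenges. 31 features were called in both challenges with the same sign and 1, Il1a, with opposite signs, and 33 of the 97 pooled calls were called in neither alone. Without single arrays of the same challenge the counts were 39 to 67 at 600 and 43 to 76 at 900, the fewest without the first array with the drug in each.

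The drug's effect on some chemokine and cytokine genes differed between the challenges. In the list of chemokines and cytokines 0 of 28 members passed the pooled test in limma (10 higher at an unadjusted p under 0.05, and 6 called in the fit with all 18 arrays), but 10 were higher in the 900 challenge and 0 in the 600 challenge, where 2 were lower and 4 had a higher value at an unadjusted p under 0.05. The list's median was 0.26 at 900 and -0.04 at 600. Of all genes 0.593% were higher at 900 and 0.372% at 600, where 0.283% were lower. The difference of effects was itself called by limma in 13 features, 11 with the larger value at 900 (0.0388% of all) and 2 with the smaller (0.00706%), and 6 of the 11 belonged to this list. The remaining 22 members had no called difference, and Ccl3, a chemokine outside the list chosen after its values were seen, was higher in the pooled test (0.27).

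Cxcl6, a neutrophil-attracting chemokine, showed the largest such difference. In the 600 challenge it read 8.62, 8.46 and 8.55 without and 8.44, 8.40 and 8.44 with the drug. In the 900 challenge it read 3.62, 4.08 and 3.68 without and 5.27, 5.29 and 5.10 with it. The drug effect was -0.12 in the former and 1.43 in the latter, and the difference was 1.55 ± 0.18 (limma adjusted p = 0.00342). Cxcl1, of the same family, read 8.08, 8.05 and 8.08 without and 8.08, 8.05 and 8.04 with the drug at 600, against 5.76, 5.66 and 5.67 and 6.65, 6.66 and 6.61 at 900, a difference of effects of 0.95 ± 0.10 (limma adjusted p = 0.00299). For both genes the level without the drug was higher in the 600 challenge than in the 900 challenge, and the part of that level in the difference was not tested.

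Ccl20, a chemokine that draws lymphocytes and dendritic cells, started lower in the 600 challenge, at 4.75, 4.87 and 4.81 without and 4.62, 4.74 and 4.65 with the drug. At 900 it went from 5.51, 5.50 and 5.64 to 6.49, 6.62 and 6.30, so that the effects differed by 1.06 ± 0.11 (limma adjusted p = 0.00299). Cxcl11, an interferon-induced chemokine, fell at 600 from 4.28, 4.46 and 4.34 to 3.59, 3.89 and 3.62, and read 5.04, 4.95 and 4.97 without and 5.41, 5.23 and 5.30 with the drug at 900. Il1a, the cytokine interleukin 1 alpha, was called in opposite directions, lower at 600 (-0.42) and higher at 900 (0.43). Its pooled value was 0.01 although both single effects passed. Csf3, the granulocyte growth factor, had 0.14 at 600 and 0.72 at 900.

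The remaining called differences were those of Aldh1a3, a retinoic acid-making enzyme (-0.59 at 600 and 0.14 at 900), the interferon-induced GTPase gene Ifi47, complement C3, Birc3, an inhibitor of apoptosis, and Sod2, the mitochondrial superoxide dismutase, all with the larger value at 900. Efhd1, a mitochondrial calcium-binding protein gene, had 0.27 at 600 and -0.35 at 900. In the NF-kB list, which holds Birc3 and Sod2, 4 of 18 members were higher and 1 lower at 900, with 0 called by limma at 600 (2 at an unadjusted p under 0.05) and 0 in the pooled test (3 higher at an unadjusted p under 0.05). Cxcl6, Ccl20, Cxcl11 and Cxcl1 passed the test of the difference in all 12 fits that left out 1 array, Il1a in 7, and Aldh1a3 and Efhd1 in 5. The count of 13 lay between 4 and 17 in those fits, with 4 without the third array of the 600 challenge with the drug or without the first or the third array of the 900 challenge with the drug.

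**Figure D4:**
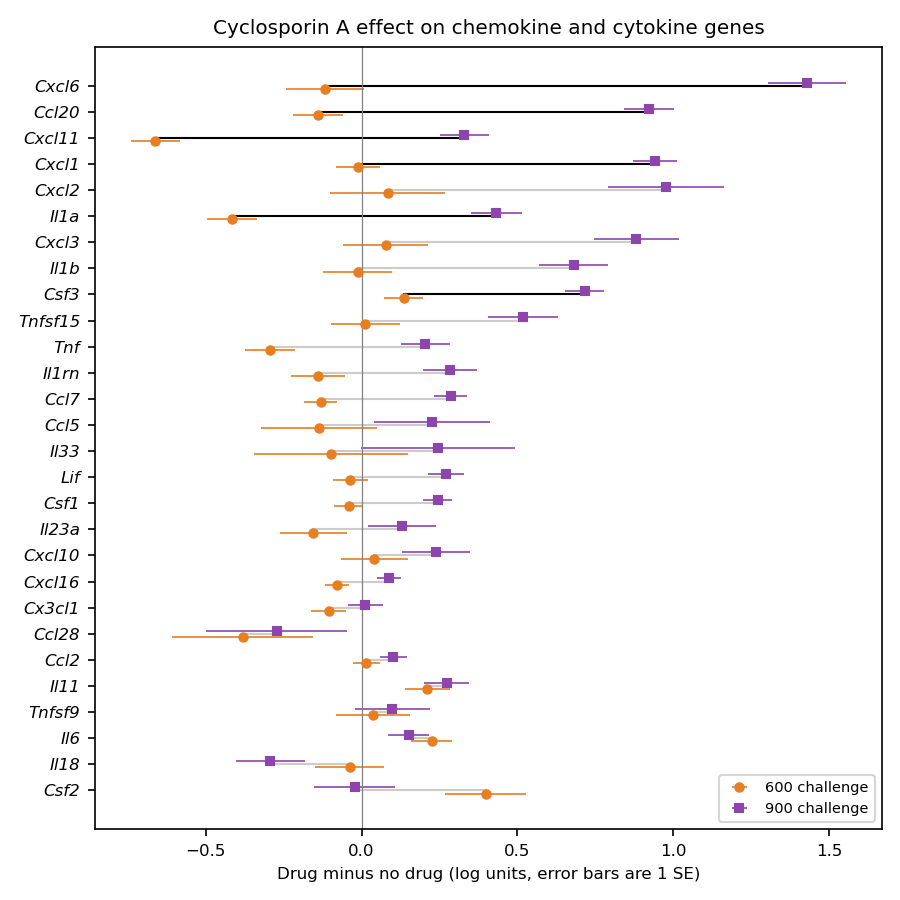
Rows are the 28 measured chemokine and cytokine genes, ordered by the difference of drug effects, and points with bars of 1 SE give the drug-minus-no-drug difference in the 600 and in the 900 challenge in log units, joined by a black line where the difference of effects passed the test. At the top Cxcl6, Ccl20, Cxcl11 and Cxcl1 have effects of 1.43, 0.92, 0.33 and 0.94 in the 900 challenge against -0.12, -0.14, -0.66 and -0.01 in the 600 challenge.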

How the data were processed

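RNA from primary cultured rat IMCD cells was purified with Qiagen RNeasy reagents and measured as biotin-labelled cDNA made with Affymetrix whole-transcript kits, per the labels' protocols. The deposited table gives 1 logarithmic level for each feature and array. Base, background correction, summarisation and normalization are not stated in the labels. A change of base leaves every p-value as it is. No filter or pseudocount was applied, and 12 values in the 12 arrays are 0.

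The pooled effect was fitted with limma 3.58.1 in R 4.3.3 as challenge plus drug on 12 arrays (9 residual, 2.10 prior and 11.1 total degrees of freedom), with Benjamini-Hochberg adjustment over all 28328 features and a threshold of 0.05, 2-sided. The effects within a challenge and their difference came from 6 group means on all 18 arrays (12 residual and 14.0 total degrees of freedom). Precision is limited by the number of arrays.

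The platform's table gave 1 symbol to 15295 features, several to 322 and none to 12711, and 15264 matched the gene table of assembly GRCr8 by Entrez identifier. Each of 14499 symbols was represented in the 34 gene lists by its brightest feature, and 606 of 677 list entries were measured. Named genes were, of the features past the threshold with the same sign in both challenges, the 14 that rose most and up to 14 that fell (13 did), and up to 6 each way for the difference of effects. Unnamed and placeholder features were passed over, and any list member could be named. The members and lists were chosen with earlier results of these data known.

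Arrays are numbered by their titles. For the third array of both 900 challenge groups another label field gives a different replicate number, the same one in either group, which leaves pairs within that challenge as they are but not a block across challenges. No label says that a replicate number ties arrays together. Over all features, same-numbered arrays deviated from their group means with correlations of 0.05, 0.02 and 0.07 at 600 and 0.01, 0.01 and -0.06 at 900. Such values cannot exclude a pairing that acts on part of the genes. Alternatives were all 18 arrays, 4 group means, replicate blocks, other scalings, a filter on dim features, other variance models and leaving out each array.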

Additional observations from a re-analysis of the deposited data

Results flagged for a closer look

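The drug effect differed between the challenges in 13 features by limma's test of the difference itself (adjusted p under 0.05, the effect at 900 minus that at 600). Of the named genes, Cxcl6 differed by 1.55 log units, Ccl20 by 1.06, Cxcl11 by 0.99, Cxcl1 by 0.95, Il1a by 0.85, Aldh1a3 by 0.73, and Efhd1 by -0.62. The pooled test called none of the 7, and in it a difference between the challenges counts as spread. In the fit with all 18 arrays that difference does not count as spread. There the same average passed for Cxcl6 (limma adjusted p = 0.00179), Ccl20 (0.00337) and Cxcl1 (0.000313), all higher, and for Aldh1a3 (0.0476), lower. It did not pass there for Cxcl11 (0.224), Il1a (0.98) or Efhd1 (0.815).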

How the results depend on the processing

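All 97 pooled calls kept their direction under every alternative (96 of 96 where features under the lower quartile were left out), and 0 results reversed, but the counts moved. A direction could change only with another scaling or with arrays left out. The other settings return the same differences and alter only their p-values. Against 81 higher and 16 lower, the pooled test gave 214 and 108 with all 18 arrays, 131 and 52 without dim features, 254 and 128 with a trended robust variance, 148 and 61 without moderation, and 17 and 3 without the arrays of widest and narrowest spread, an alternative chosen after seeing the data. Falls were 32 with 4 group means, 9 with array medians equalised and 27 with quantile normalization. With the replicate number as a block the counts were 44 and 5, and with 6 pairs within challenge 10 and 1. Whether the numbers pair the arrays is not in the labels. Leaving out 1 array gave 35 to 57 and 5 to 12, and 37 features passed in all 12 such fits. List counts, also examined after seeing the data, were for the sterol list (10) 0 with pairs, 2 without the arrays of widest and narrowest spread and 6 to 9 leaving out 1 array, for the ER stress list (8) 3 with the replicate block, 0 with pairs, 14 with the trended variance, 1 without those arrays and 2 to 6 leaving out 1, and for the fatty acid list (4) 8 with 18 arrays, 2 with pairs, 7 without dim features, 9 with the trended variance and 4 to 5 leaving out 1. The 116 calls at 600 became 38 with 4 group means, 178 without dim features, 268 with the trended variance and 39 to 106 leaving out 1 array. The 143 at 900 became 55, 233, 385 and 43 to 146, and the 13 differences became 5, 27, 43 and 4 to 17 under the same settings. Signal over background is not given, so differences under the lower quartile are less sure in size.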

Other observations

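A pair of enzymes that work as a complex moved apart. Pomt2, a protein mannosyltransferase of the ER like Pomt1, was higher with the drug (0.30, limma adjusted p = 0.0289), whereas Pomt1 was lower (-0.23, 0.0297). Both were chosen after their values were seen, and the Pomt1 call did not hold in any fit that left out 1 array. Among secreted signals, Wnt5a, a non-canonical Wnt ligand, rose by 0.32, Pgf, the placental growth factor, by 0.26, and Ccl3, a chemokine of macrophages, by 0.27, and Ddr2, a collagen receptor, rose by 0.35 together with Prrx1, a mesenchymal transcription factor (0.25). Slc20a1, a phosphate transporter, rose by 0.23.

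The feature with the largest pooled effect after Mmp9 had no symbol in the platform's table. It rose by 0.95 log units, by 1.20 in the 600 challenge and by 0.70 in the 900 challenge, and is 1 of the 13 features whose effects differed (-0.50, limma adjusted p = 0.0458). Across all 28328 features the drug effects in the 2 challenges correlated weakly (Pearson r 0.05, Spearman rho 0.06), and r was 0.10 over the 21246 features above the lower quartile. Features are not independent replicates, and these values are descriptions.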
